A study of Mus musculus with 8 samples.

Results

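Transcription factors of retinal ganglion cells (RGCs), encoded by 7 genes, were followed by symbol through single-nucleus RNA sequencing (snRNA-seq) of sorted mouse retinal nuclei: Pou4f1, Pou4f2 and Pou4f3 (the Brn3 POU-domain factors Brn3a, Brn3b and Brn3c), Isl1 and Isl2 (LIM-homeodomain factors), and Ebf1 and Ebf3 (EBF-family helix-loop-helix factors). The rule took these 7 symbols from the 33696 genes of the deposited tables and used no measured value, although the choice was made with earlier results of these data known, and all 7 were detected in every library. Their levels were read over retinal classes, over RGC nuclei and between genotypes. An RGC nucleus was one with at least 2000 unique molecular identifiers (UMIs, 1 per captured transcript) of which at least 2 came from the RGC genes Rbpms and Slc17a6 together. By this rule 21048 of the 27900 nuclei that passed quality control were RGC nuclei, 10114 in control and 10934 in cKO libraries.

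The 8 libraries came from retinae of female mice at 120 days of age, with 6 retinae pooled per library and nuclei sorted as NeuN+ and RBPMS+. The 4 control libraries (numbered 1 to 4) were from Piezo2f/f mice, which carry loxP-flanked Piezo2 alleles and no Cre. The 4 cKO libraries (numbered 10 to 13) were from Olig2-cre;Piezo2f/f mice, in which Cre is expressed under Olig2 to remove Piezo2 from oligodendrocyte lineage cells. These mice carry 1 functional Olig2 allele and the controls were not described as doing so, so loss of Piezo2 and reduced Olig2 dosage cannot be told apart.

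Brn3 factors are expressed by most RGCs as they leave the cell cycle, and act in their differentiation, survival, axon growth and dendrite shape. Isl1 works together with Pou4f2 downstream of the proneural factor Atoh7, Isl2 is known from RGCs that project to the opposite side of the brain, and EBF factors act in the specification of RGCs and of some amacrine and bipolar cells. In the adult retina Pou4f2 and the other Brn3 genes serve as RGC markers, and combinations of them differ between RGC types.

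The libraries held 35697629 to 60088630 UMIs, 1983 to 4205 nuclei after quality control and 1510 to 3327 RGC nuclei each, with a median of 4852 to 11126 UMIs per RGC nucleus. RGC nuclei carried Rbpms at 1129 to 1311 UMIs per 1000000 UMIs (CPM) and Slc17a6 at 227 to 345 CPM, levels that the rule itself sets. Of RGC markers outside the rule, the neurofilament genes Nefl, Nefm and Nefh were 3.17, 6.24 and 2.76 times, Sncg 2.65 times and Thy1 3.08 times their level in GAD-high amacrine-like nuclei. Between 92.6% and 97.8% of the RGC nuclei of a library lay in the 37 clusters with RGC marker genes. The summed rod marker level in RGC nuclei was 278 to 729.8 CPM in control and 403 to 773 CPM in cKO libraries, and its part in the values below was not tested. Piezo2 in RGC nuclei was at 12.1 to 17.1 CPM in control and 8.65 to 15.1 CPM in cKO libraries, which overlapped. These counts are of the whole gene and not of the exons that Cre removes. They therefore do not show whether the Piezo2 alleles of RGCs were intact. Because nuclei were sorted, fewer nuclei of a type and less RNA per nucleus cannot be told apart in sums, and no class share is read as a share of the retina.

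Over the retinal classes, the 3 Brn3 genes and Isl2 were highest in RGC nuclei, whereas Isl1, Ebf1 and Ebf3 were shared with particular amacrine and bipolar classes. Classes were rebuilt from the data by clustering without the 7 genes and named from marker genes, so names carry "-like" where used of clusters, and the levels are descriptions with no test. A CPM value depends on a gene's length and on its capture, so levels are compared here between classes and not between genes.

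Pou4f1 (ENSMUSG00000048349, GRCm39 chromosome 14, 104699112 to 104705504, minus strand) was at 81.0 ± 11.4 CPM in RGC nuclei (SD, n = 8 libraries). In GAD-high amacrine-like nuclei, which should lack the gene, it was at 5.56 ± 2.58 CPM (n = 8). No other class reached the RGC level in any library. After each nucleus was thinned to 2000 UMIs, so that depth was equal, Pou4f1 was detected in 15.6 ± 2.23% of RGC nuclei and 1.26 ± 1.05% of GAD-high amacrine-like nuclei, while at full depth the RGC share was 43.0%. Pou4f2 (ENSMUSG00000031688, chromosome 8, 79159638 to 79163278, minus strand), the earliest of the family to act in RGC differentiation, was at 25.6 ± 2.54 CPM in RGC nuclei and 1.30 ± 0.808 CPM in GAD-high amacrine-like nuclei. Starburst amacrine-like nuclei carried it at 7.23 ± 9.53 CPM from 9 UMIs in all, and 1 of their 8 libraries lay above its own RGC level. Pou4f3 (ENSMUSG00000024497, chromosome 18, 42527433 to 42530354, plus strand), also needed in auditory hair cells, reached 8.30 ± 1.07 CPM in RGC nuclei and 1.03 ± 0.666 CPM in GAD-high amacrine-like nuclei. Its share of RGC nuclei at equal depth was 1.53 ± 0.329%, against 0.239 ± 0.218% of GAD-high amacrine-like nuclei. Starburst amacrine-like nuclei carried it at 3.16 ± 4.97 CPM from 4 UMIs and cone-like nuclei at 2.58 ± 6.83 CPM from 2 UMIs, each with 1 library above its own RGC level.

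**Figure D1:**
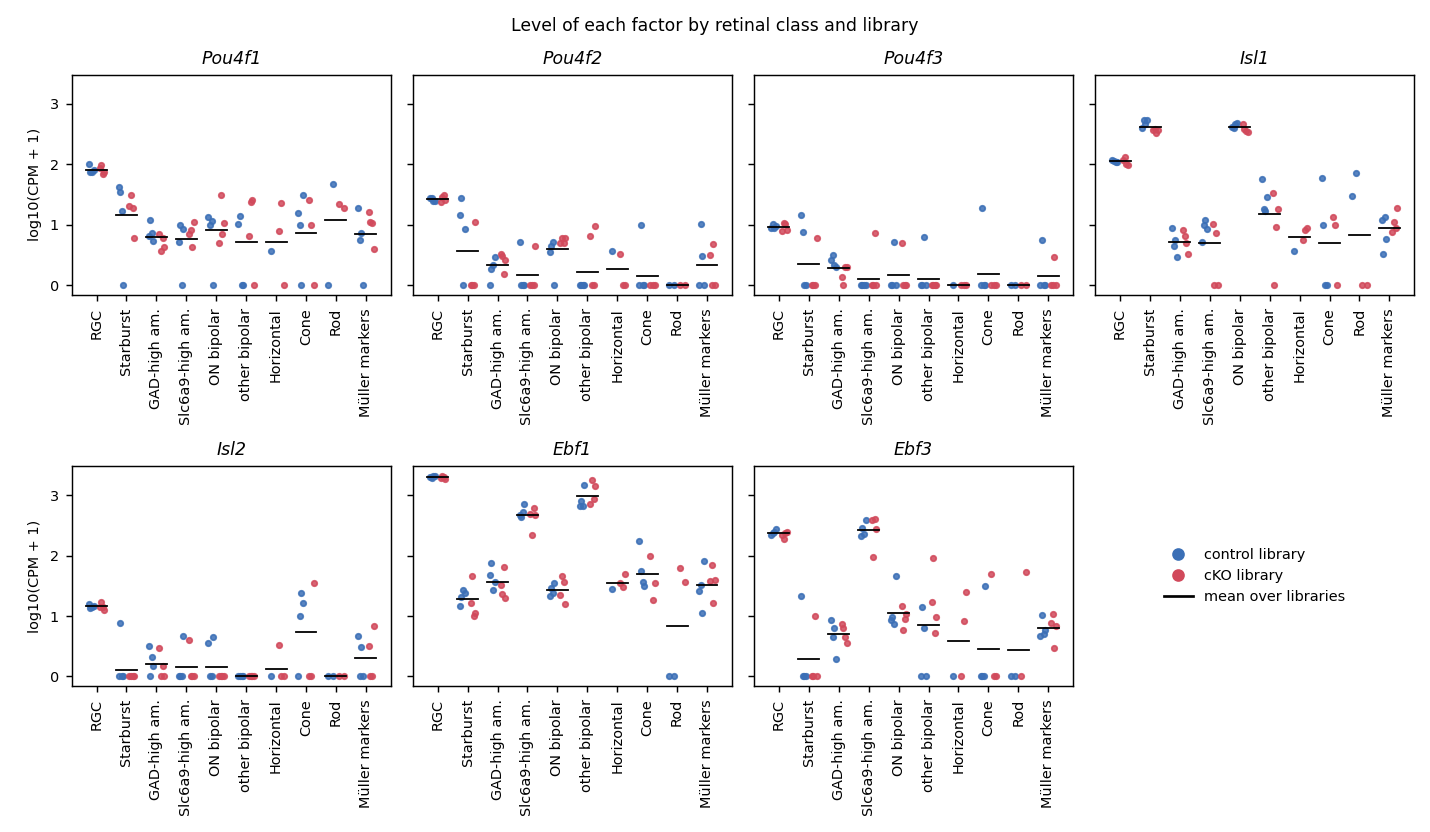
Level of each of the 7 genes by retinal class, as log10(CPM + 1), with 1 point per library (blue, control; red, cKO) and a line at the mean over libraries. Pou4f1, Pou4f2 and Pou4f3 have their highest mean in RGC nuclei, Isl1 in starburst amacrine-like and ON bipolar-like nuclei, and Ebf3 overlaps between RGC nuclei and Slc6a9-high amacrine-like nuclei.

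Isl1 (ENSMUSG00000042258, chromosome 13, 116434817 to 116446235, minus strand) showed another order. Starburst amacrine-like nuclei, the cholinergic interneurons, were highest at 426 ± 85.2 CPM, ON bipolar-like nuclei followed at 415 ± 55.7 CPM and RGC nuclei at 111 ± 11.0 CPM (SD, n = 8 each). The upper pair overlapped, and each lay above the RGC nuclei in 8 of 8 libraries. GAD-high amacrine-like nuclei were at 4.57 ± 2.12 CPM. At equal depth Isl1 was detected in 53.3% of starburst amacrine-like, 53.6% of ON bipolar-like and 17.9% of RGC nuclei. Isl2 (ENSMUSG00000032318, on the plus strand of chromosome 9, 55445956 to 55453464) had a level of 13.5 ± 1.45 CPM in RGC nuclei. Cone-like nuclei gave 11.7 ± 13.4 CPM from only 6 UMIs in 7 libraries, 3 of which lay above the RGC level, and GAD-high amacrine-like nuclei gave 0.778 ± 0.878 CPM.

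Ebf1 (ENSMUSG00000057098, on the plus strand of chromosome 11, 44508138 to 44898918) had a level of 2000 ± 79.0 CPM in RGC nuclei, 1052 ± 446 CPM in the bipolar-like clusters other than ON bipolar and 490 ± 139 CPM in Slc6a9-high amacrine-like nuclei (SD, n = 8 each). GAD-high amacrine-like nuclei were at 40.0 ± 20.5 CPM. It was detected in 91.5% of RGC nuclei at equal depth. Ebf3 (ENSMUSG00000010476, chromosome 7, 136795402 to 136916218, minus strand) was at 284 ± 107 CPM in Slc6a9-high amacrine-like nuclei and 233 ± 25.1 CPM in RGC nuclei, and these overlapped, with the amacrine level above the RGC level in 5 of 8 libraries. GAD-high amacrine-like nuclei were at 4.43 ± 2.20 CPM. With nuclei of at least 5000 UMIs alone, Ebf1 in the other bipolar-like nuclei was at 1771 CPM in the 1 library that gave a value. Ebf3 in Slc6a9-high amacrine-like nuclei was then at 161 ± 131 CPM, and RGC nuclei were at 228 ± 32.4 CPM. The cause of this change was not tested.

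Within both of these classes Ebf1 lay mainly in 1 cluster, and Ebf3 did so within the Slc6a9-high amacrine-like nuclei. Among Slc6a9-high amacrine-like nuclei, cluster 48 (195 nuclei, led by Lgr5 and Spink13) carried Ebf1 at 1569 ± 229 CPM and Ebf3 at 881 ± 184 CPM. The other cluster of that class, cluster 32 with 363 nuclei, carried Ebf1 at 15.9 ± 11.8 CPM and Ebf3 at 8.73 ± 9.18 CPM. Among the other bipolar-like nuclei, cluster 42 (238 nuclei, led by Neto1 and Tacr3) carried Ebf1 at 1384 ± 420 CPM and Ebf3 at 20.9 ± 36.5 CPM, the latter from 12 UMIs. Cluster 54 of the same class (104 nuclei) carried Ebf1 at 28.6 ± 45.4 CPM from 6 UMIs, and 1 UMI of Ebf3.

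Free RNA carried these genes too. Barcodes with at most 100 UMIs, which hold RNA outside nuclei, had Pou4f1 at 94.4 to 181 CPM, Pou4f2 at 19.4 to 52.0 CPM, Pou4f3 at 8.18 to 19.9 CPM and Isl2 at 13.9 to 30.3 CPM over the 8 libraries. These levels lay above the RGC nuclei of the same library in 8 of 8 libraries for Pou4f1 and Isl2, in 7 for Pou4f3 and in 6 for Pou4f2. Isl1 at 68.5 to 109.6 CPM, Ebf1 at 617 to 1105 CPM and Ebf3 at 116 to 148 CPM lay below the RGC nuclei in 8 of 8 libraries. The GAD-high amacrine-like values above are given as the background beside each RGC value. Its size in single RGC nuclei was not tested.

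The RGC nuclei of both genotypes carried the 7 genes at overlapping levels, and none of them was called between control and cKO in the test across all genes. Counts were summed over the RGC nuclei of each library and fitted with edgeR's quasi-likelihood test over 18164 genes, where a gene was called if its log2 fold change exceeded 0.5 in either direction with a Benjamini-Hochberg adjusted p below 0.05. Called genes were 0 of the 7 and 0 of the 18164, that is 0.0%, with 609 genes at an unadjusted p under 0.05 and a smallest adjusted p of 0.628. DESeq2 called 3 genes (0.0165%: Gm15564, Hsd17b7 and Lars2), none of them among the 7. The labels do not say whether the pools shared animals or days, so p-values measure only the spread between these pools. If preparation differed between the control and cKO libraries, its effect cannot be told apart from that of genotype.

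Pou4f1 in RGC nuclei was at 98.9, 73.5, 74.6 and 79.6 CPM in control libraries 1 to 4 and at 84.6, 96.1, 68.2 and 72.2 CPM in cKO libraries 10 to 13. Each group held 1 library above 95 CPM, and the groups overlapped. The means were 81.7 ± 11.8 and 80.3 ± 12.7 CPM (SD, n = 4 each; log2 fold change −0.09, SE 0.0987, edgeR adjusted p = 0.996). Pou4f2 was at 26.3, 26.6, 23.4 and 23.5 CPM in control and 22.9, 27.3, 30.4 and 24.4 CPM in cKO libraries. The lowest and the highest of the 8 values were both cKO, so the control range lay inside the cKO range. The log2 fold change was 0.01 (SE 0.102, edgeR adjusted p = 0.999). Pou4f3 was at 7.90, 9.31, 7.96 and 8.41 CPM in control and 6.82, 9.65, 9.35 and 7.05 CPM in cKO libraries. Again the cKO values spread to both sides of the controls (log2 fold change −0.10, SE 0.138, edgeR adjusted p = 0.996).

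Isl1 in RGC nuclei was at 118, 114, 110.1 and 108 CPM in control and 115.5, 130, 99.0 and 95.2 CPM in cKO libraries. The controls lay close together at 112.5 ± 4.23 CPM and the cKO libraries spread around them at 109.9 ± 16.04 CPM (SD, n = 4 each; log2 fold change −0.10, SE 0.0722, edgeR adjusted p = 0.996). Isl2 was at 14.8, 12.4, 13.2 and 13.7 CPM in control and 13.0, 16.2, 13.1 and 11.5 CPM in cKO libraries, and the groups overlapped. Its log2 fold change was −0.07 (SE 0.0986, edgeR adjusted p = 0.996).

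Ebf1 in RGC nuclei was at 2032, 1950, 2069 and 2092 CPM in control and 1913, 2078, 1977 and 1887 CPM in cKO libraries. Library 11 of the cKO group lay among the upper controls and the other cKO libraries near or below the lowest control. The log2 fold change was −0.12 (SE 0.0576, edgeR unadjusted p = 0.0664, adjusted p = 0.996, interval of 2 SE −0.23 to 0.00). Ebf3 was at 215, 234, 248 and 272 CPM in control and 222, 189, 237 and 249.7 CPM in cKO libraries. The lowest value was cKO and the highest control, with the remaining 6 interleaved (log2 fold change −0.17, SE 0.117, edgeR adjusted p = 0.996, interval of 2 SE −0.40 to 0.07). The groups overlapped for all 7 genes, beside 3.47% of all genes whose groups did not. The fold changes were below 0 for 6 of the 7 genes with a median of −0.10, beside a median of 0.01 over all 18164 genes, and no conclusion on the group is drawn from this.

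**Figure D2:**
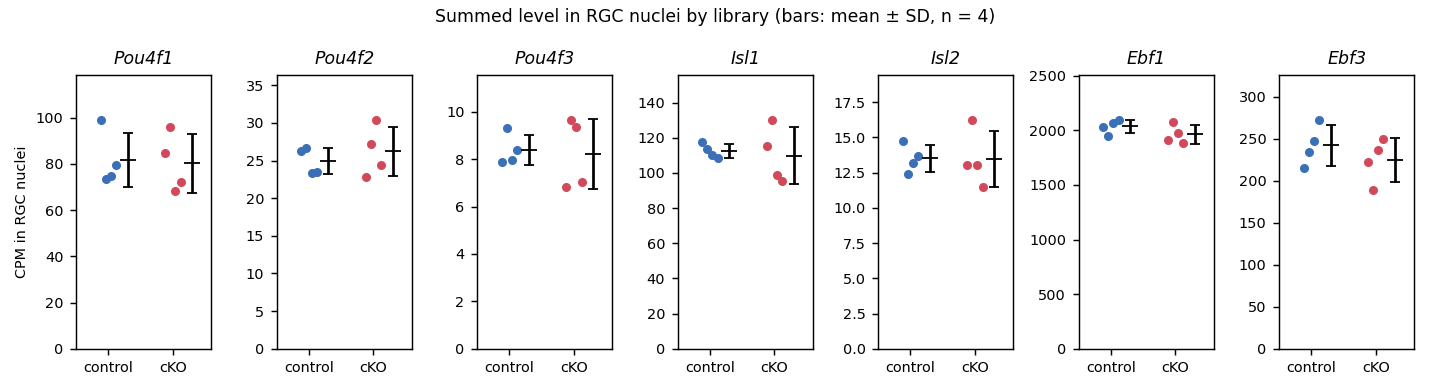
Summed level in RGC nuclei (CPM, linear axes from 0) for each of the 7 genes, with 1 point per library and bars for the mean ± SD of 4 control (blue) and 4 cKO (red) libraries. The groups overlap for every gene, for example Ebf1 at 1950 to 2092 CPM in control and 1887 to 2078 CPM in cKO libraries.

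Genes that work with these factors were tested in the same fit. Of 17 EBF and LIM-homeodomain cofactors and paralogs, 0 were called, 8 had a fold change above 0 and 9 below it, and the median was −0.02. Ldb2, which encodes a LIM-domain-binding adaptor, was at 204.5 ± 15.9 CPM in control and 182 ± 19.6 CPM in cKO RGC nuclei (log2 fold change −0.23, edgeR adjusted p = 0.996). Of 28 RGC development transcription factors, 26 could be tested (Dlx1 and Dlx2 were too low) and 0 were called, with 5 above 0, 21 below it and a median of −0.06. Over all 18164 genes 46.7% were below 0, and no conclusion on that list is drawn from its signs. Tbx20, a T-box factor, was at 24.7 ± 2.45 CPM in control and 18.4 ± 2.52 CPM in cKO RGC nuclei and was the only one of that list with an unadjusted p under 0.05 (log2 fold change −0.50, SE 0.103, edgeR unadjusted p = 0.00051, adjusted p = 0.996). Of 20 RGC axon and output genes, 0 were called and the median was 0.01. Robo2, a guidance receptor, was at 1482 ± 65.3 CPM in control and 1385 ± 52.2 CPM in cKO RGC nuclei (log2 fold change −0.16, edgeR unadjusted p = 0.0352, adjusted p = 0.996).

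In the other classes no tested member was called either, beside 1 of 12750 genes (0.00784%, Grik1) in GAD-high amacrine-like nuclei and 0 elsewhere. Few members passed the filter on low counts there. They were Pou4f1, Isl1, Ebf1 and Ebf3 in GAD-high, Isl1 in starburst, and Ebf1 and Ebf3 in Slc6a9-high amacrine-like nuclei. Isl1 and Ebf1 passed it in ON bipolar-like nuclei, and Ebf1 in the other bipolar-like nuclei and the cluster with Müller glia markers. Isl1 in starburst amacrine-like nuclei was at 392, 547, 463 and 551 CPM in control and 363, 388, 327 and 373.5 CPM in cKO libraries. Every cKO library lay below every control library there, from 235 nuclei and 533 UMIs in all. The log2 fold change was −0.45 (SE 0.157, edgeR unadjusted p = 0.00952, adjusted p = 1.00), with 0 of 2920 genes called, 88 at an unadjusted p under 0.05 and, by DESeq2, 0 called and 29 under 0.05. Groups that did not overlap were found for 68 of those 2920 genes (2.33%). Relative to RGC nuclei of the same library, the Isl1 log2 ratio was 2.10 ± 0.273 in control and 1.73 ± 0.172 in cKO libraries (exact permutation test, p = 0.0571, adjusted over 5 such comparisons p = 0.286). Isl1 in ON bipolar-like nuclei was at 443 ± 42.1 and 388 ± 58.8 CPM (log2 fold change −0.21, SE 0.135, edgeR adjusted p = 1.00). Ebf1 in the other bipolar-like nuclei was at 905 ± 398 and 1200 ± 497 CPM (log2 fold change 0.33, SE 0.276, edgeR adjusted p = 0.999).

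Combinations of the 3 Brn3 genes in single RGC nuclei were read at equal depth of 2000 UMIs. Most nuclei, 78.7 ± 2.03%, gave no Brn3 UMI at that depth, so that these shares are of nuclei with a captured transcript and not of nuclei that express the gene. Pou4f1 alone was detected in 14.6 ± 2.12% of RGC nuclei, Pou4f2 alone in 4.33 ± 0.719% and Pou4f3 alone in 1.27 ± 0.274% (SD, n = 8 libraries). Pou4f1 with Pou4f2 was seen in 0.782 ± 0.113%, Pou4f1 with Pou4f3 in 0.203 ± 0.105% and Pou4f2 with Pou4f3 in 0.0579 ± 0.0352%. At full depth the share without a Brn3 UMI was 44.6 ± 6.21%, and Pou4f1 with Pou4f2 was found in 6.87 ± 1.82% and all 3 genes in 0.473 ± 0.341% of RGC nuclei.

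None of the 8 Brn3 states passed the test between genotypes. Pou4f2 alone was in 3.83 ± 0.587% of control (3.11 to 4.51%) and 4.83 ± 0.437% of cKO RGC nuclei (4.47 to 5.42%), which overlapped at the edge (exact permutation test, p = 0.0571, adjusted over 8 states p = 0.457, where 0.0286 is the smallest p possible). At full depth the difference of 1.00 percentage points was 0.513 (exact permutation test, p = 0.657). Pou4f1 alone was in 14.9 ± 2.21% and 14.4 ± 2.34% (exact permutation test, p = 0.686). At least 1 EBF gene was detected in 95.3 ± 0.614% of RGC nuclei, at least 1 Brn3 gene in 21.3 ± 2.03% and at least 1 Isl gene in 20.2 ± 1.82%. Counting all 7 genes, 3.35% of nuclei showed none, 43.3% showed 1, 40.1% showed 2, 11.9% showed 3 and 1.24% showed 4.

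Detection of 1 gene was then compared with detection of another within each library, as the share of nuclei with both over the share given by the product of the single shares. All 21 pairs were computed, as descriptions over nuclei that share their library and their depth. Isl1 and Ebf3 were found together less often than that product in 8 of 8 libraries (ratio 0.796 ± 0.0700, 899 nuclei with both). Pairs with Ebf1 are held near 1, since Ebf1 was detected in 91.5% of RGC nuclei, and their ratios are not set beside those of other pairs. Pou4f2 was found with Isl1, its partner in RGC differentiation, above the product in 7 of 8 libraries (1.24 ± 0.223, 0.906 to 1.59, 239 nuclei), and so was Isl2 with Ebf3 (1.16 ± 0.149, 0.996 to 1.40, 199 nuclei).

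For 2 of the 21 pairs the ratios did not overlap between the genotypes, a comparison made after the ratios had been seen. No such share was computed for pairs of other genes, so the count has no measured background. Of the 70 possible assignments of the libraries to the groups, a fraction of 0.0286 separates the values of a pair fully. No conclusion is drawn from the count of 2. Pou4f1 with Isl1 was at 0.838 ± 0.0244 in control and 1.04 ± 0.0871 in cKO libraries (SD, n = 4 each), and the groups did not overlap. Pou4f1 with Ebf3 was at 1.05 ± 0.0367 and 0.897 ± 0.0725, again without overlap. Each of these gave the smallest p of the exact permutation test, 0.0286, and over the 21 pairs the adjusted p was 0.30, so no pair passed. Pou4f1 with Pou4f2 was at 1.12 ± 0.165 in control and 0.875 ± 0.115 in cKO libraries (166 nuclei), and the 3 libraries above 1 were all controls (exact permutation test, p = 0.0571, adjusted p = 0.36). Pou4f2 with Ebf3 was at 0.664 ± 0.186 and 0.972 ± 0.132 (278 nuclei; exact permutation test, p = 0.0857, adjusted p = 0.36). For Isl1 with Ebf3 both genotypes lay below 1, at 0.760 ± 0.0640 and 0.832 ± 0.0620.

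The 37 RGC-like clusters, made without the 7 genes, showed where each gene was high. Other transcripts near the 7 genes were not kept out of the clustering, so the clusters are not fully independent of them. A cluster counted as above background when the lower 95% Poisson bound of its level exceeded the highest GAD-high amacrine-like library, and these intervals cover counting error only. Pou4f2 and Ebf1 passed in 37 of 37 clusters, Ebf3 in 36, Pou4f1 and Isl1 in 32 each, Pou4f3 in 22 and Isl2 in 18. The clusters above background held 93.0% of the 20594 clustered nuclei for Pou4f1, 74.2% for Isl1, 62.6% for Pou4f3 and 55.0% for Isl2. All 7 genes passed together in 13 clusters with 34.4% of the nuclei, and 9 combinations occurred in all. For the Brn3 genes, 22 clusters passed for all 3, 10 clusters (30.5% of nuclei) for Pou4f1 and Pou4f2, and 5 clusters (6.99%) for Pou4f2 alone. These counts depend on the class taken as background, and nuclei that met the RGC rule were left out of it. Pooled over all its nuclei, GAD-high amacrine-like cluster 23 carried Pou4f2 at 5.92 CPM from 12 UMIs. That lay above RGC-like cluster 26, which passed at 4.25 CPM. Against the highest mean of any class outside RGC nuclei, a choice made after the counts had been seen, 30 clusters passed for Pou4f1 (over 21.3 CPM in rod-like nuclei, from 4 UMIs) and 27 for Pou4f2 (over 7.23 CPM in starburst amacrine-like nuclei). For Pou4f3 17 passed and for Isl2 12. All 3 Brn3 genes then passed together in 12 clusters with 26.5% of the nuclei, and Pou4f1 with Pou4f2 in 9 (35.6%). Pou4f1 with Pou4f3 passed in 5 clusters (14.6%), Pou4f1 alone in 4 (12.9%), Pou4f2 alone in 6 (10.1%) and none in 1. The combinations of Brn3 genes thus also changed with the background.

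**Figure D3:**
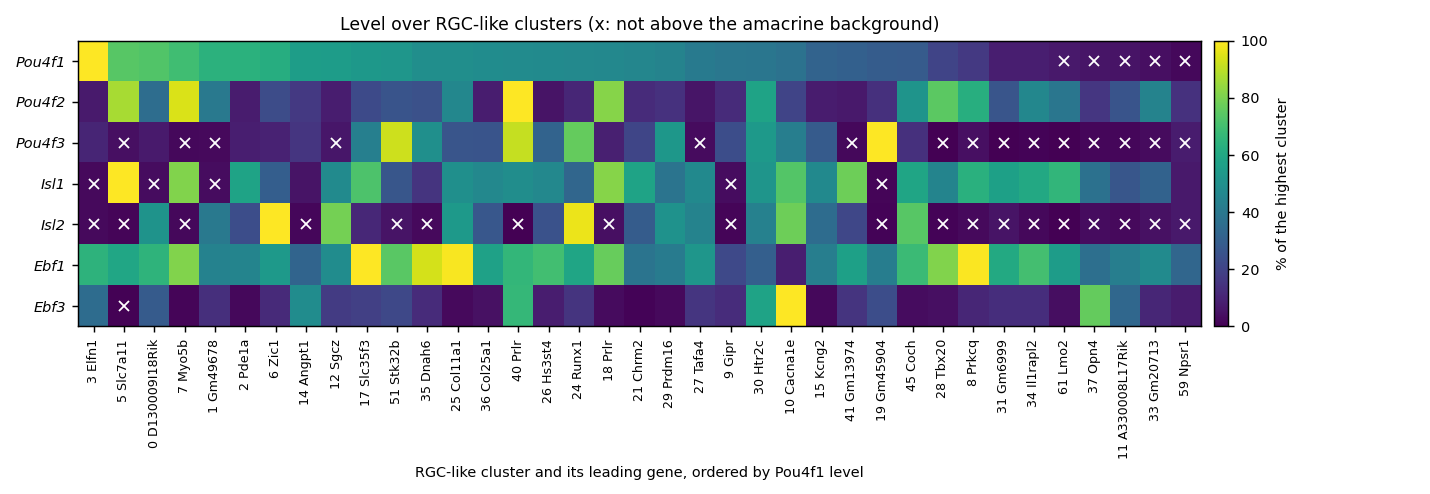
Mean level of each gene over 37 RGC-like clusters as a percentage of its own highest cluster, with clusters named by number and leading gene and ordered by Pou4f1 level; x marks levels not above the amacrine background. The 5 clusters without Pou4f1 above background lie at the right, among them the Opn4-led cluster 37, and Ebf3 is brightest in cluster 10 where Ebf1 is darkest.

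Pou4f1 was highest in cluster 3 (1240 nuclei, led by Elfn1) at 179 ± 29.5 CPM, followed by cluster 5 (led by Slc7a11) at 132 CPM. The 5 clusters where it did not pass were cluster 61 (led by Lmo2) at 12.5, cluster 37 (led by Opn4, the melanopsin gene) at 10.1, cluster 11 at 9.56, cluster 33 at 7.37 and cluster 59 (led by Npsr1) at 3.83 CPM. Pou4f2 peaked in cluster 40 (283 nuclei, led by Prlr) at 83.4 ± 13.8 CPM, with cluster 7 at 78.6 and cluster 5 at 72.5 CPM inside its spread. Its lowest level was 4.25 CPM in cluster 26. Pou4f3 was highest in cluster 19 (503 nuclei, led by Gm45904) at 44.6 ± 9.19 CPM, with clusters 51 and 40 at 41.2 and 40.6 CPM inside that spread. No Pou4f3 UMI was found in cluster 31 (378 nuclei), where 0 counts allow up to 0.718 CPM.

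Isl1 was highest in cluster 5 at 265 ± 14.0 CPM and was at or below 8.88 CPM in clusters 0, 1, 3, 9 and 19. These 5 clusters held the highest Pou4f1 level (cluster 3) and the highest Pou4f3 level (cluster 19). Cluster 5 itself had the next highest Pou4f1 level, 132 CPM, and cluster 1 had Pou4f3 at 1.08 CPM, not above background. Over the 37 clusters, Pearson's r with Isl1 was −0.072 for Pou4f1 and −0.164 for Pou4f3. Isl2 was highest in cluster 6 (841 nuclei, led by Zic1) at 49.9 ± 10.9 CPM, next to cluster 24 at 48.4 CPM, and gave no UMI in cluster 40, where 0 counts allow up to 1.53 CPM.

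Cluster 10 (659 nuclei, led by Cacna1e, Them7 and Serpinb8) had the highest Ebf3 level, 1276 ± 76.7 CPM, and the lowest Ebf1 level, 303 ± 47.8 CPM. Ebf1 ran to 3580 ± 275 CPM in cluster 17. Ebf3 was next highest in the Opn4-led cluster 37 at 972.5 ± 190 CPM and lowest in cluster 5 at 5.27 ± 2.88 CPM, the only cluster where it did not pass. Over the 37 clusters, Pearson's r of log2(CPM + 1) was computed for all 21 pairs. It was −0.338 for Ebf1 and Ebf3, −0.375 for Isl1 and Ebf3, 0.442 for Pou4f1 and Pou4f3 and −0.103 for Pou4f1 and Pou4f2. Pou4f2 and Isl2 gave −0.368 and Pou4f1 and Isl2 0.344, and the remaining pairs lay between −0.213 and 0.307. These describe 37 points that share the same 8 libraries.

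RGC nuclei with at least 1 UMI of a subclass marker were compared with those without, within each library at 2000 UMIs per nucleus, for 8 markers and 7 genes. Of these 56 comparisons, 20 (35.7%) had an unadjusted p of at most 0.0156 in an exact sign-flip permutation test over 8 libraries, 6 higher and 14 lower in marker-positive nuclei. Over 86610 tests of 10827 genes at least as high as the lowest of the 7, the same level was reached in 9.72%, of which 3.59% higher and 6.13% lower. These genes start at 7.95 CPM and were not matched in level to the 7, of which Ebf1 and Ebf3 are far higher. No conclusion on the group is drawn from the shares. Adjusted over all 86610 tests, 0 genes passed 0.05 with any marker, since the smallest p that 8 libraries allow, 0.00781, became 0.114 and 0.0156 became 0.161. The values below are therefore given with the number of libraries that share a direction and are not called. Adjusted over the 56 comparisons alone, the 20 lay under 0.05. With 1 library left out, 18 or 19 comparisons did so without control 3 or cKO 10, 12 or 13, and 0 without control 1, 2 or 4 or cKO 11. With 7 libraries the smallest p is 0.0156, which passes only where at least 18 comparisons share it, so these counts do not bear on the stability of single comparisons.

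Nuclei with Opn4, the melanopsin gene of intrinsically photosensitive RGCs, numbered 288. In them Ebf3 was at 500.0, 704.5, 898 and 1029 CPM in control and 736, 413.5, 614 and 471 CPM in cKO libraries. Each of these lay above the Opn4-negative nuclei of its own library, which ranged from 195 to 306 CPM (671 ± 215 against 245 ± 31.5 CPM, SD, n = 8; exact permutation test, unadjusted p = 0.00781). The difference was 425 CPM, and 153 CPM at full depth. Pou4f1 was lower, 26.2 ± 14.7 against 89.4 ± 14.8 CPM, in 8 of 8 libraries but from 16 UMIs, and at full depth the difference was −52.2 CPM. Ebf1 was lower, 1566 ± 235 against 2022 ± 74.6 CPM (8 of 8 libraries), a difference of −456 CPM that was −108 CPM at full depth. Isl2 and Pou4f3 were lower from only 2 and 1 UMIs in the Opn4-positive nuclei, too few to read a level.

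Nuclei with Tbr1, a T-box factor of a set of RGC types, had more Isl1 in 8 of 8 libraries (200.4 ± 48.9 against 106 ± 10.8 CPM), more Ebf1 (2384 ± 191 against 2013 ± 75.8 CPM) and less Ebf3 (156 ± 48.6 against 252 ± 33.1 CPM). In nuclei with Zic1 the level of Isl2 was 61.5 ± 44.2 against 13.8 ± 2.12 CPM, higher in 8 of 8 libraries from 28 UMIs in 218 nuclei. Its level in single libraries ran from 17.2 to 136 CPM, and the difference of 47.7 CPM was 28.6 CPM at full depth. Nuclei with Spp1, a marker of alpha RGCs, had less Pou4f1 in 8 of 8 libraries (44.6 ± 14.7 against 89.7 ± 14.9 CPM). Nuclei with Foxp2 had less Ebf1 (1595 ± 65.4 against 2096 ± 83.2 CPM, 8 of 8 libraries) and slightly more Pou4f1 (98.6 ± 20.1 against 86.7 ± 13.8 CPM, 7 of 8).

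Nuclei with Cartpt, a marker of direction-selective types, had less Pou4f2 in 8 of 8 libraries (22.9 ± 5.33 against 29.0 ± 3.89 CPM). They numbered 4733. Pooled over nuclei, Cartpt was highest in cluster 26 at 1280 CPM but still at 70.7 CPM in cluster 0, the largest. A single Cartpt UMI therefore does not set direction-selective types apart, and this difference is not read as theirs. Nuclei with Chrm2, a muscarinic receptor, had more Isl1 (131.5 ± 21.1 against 106 ± 10.8 CPM) and less Ebf1 (1785 ± 123 against 2030 ± 77.9 CPM), each in 8 of 8 libraries. The Isl1 difference beside Chrm2, 25.8 CPM, was 10.2 CPM at full depth. In the 459 nuclei with Piezo2, Ebf1 was lower in 8 of 8 libraries (1748 ± 175 against 2022 ± 74.4 CPM) and Ebf3 in 7 of 8 (137 ± 68.9 against 254 ± 33.3 CPM). Pou4f1, at 90.03 ± 31.1 against 88.5 ± 14.5 CPM, did not differ beyond its spread there (exact permutation test, unadjusted p = 0.867).

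**Figure D4:**
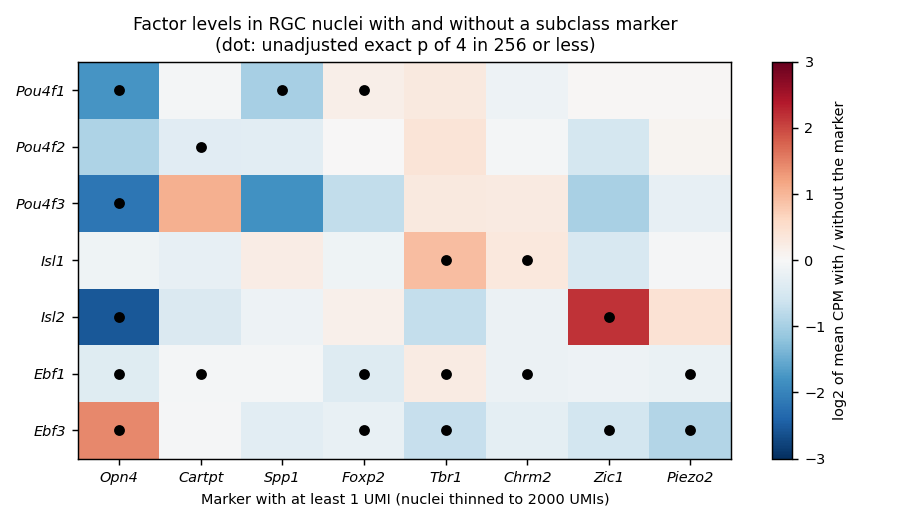
Colour gives the log2 ratio of mean CPM between RGC nuclei with and without at least 1 UMI of each marker, at 2000 UMIs per nucleus, and dots mark an unadjusted exact p of at most 0.0156, which none of 86610 tests over all genes keeps under 0.05 after adjustment. Ebf3 is above 0 beside Opn4 (671 against 245 CPM) and below 0 beside Piezo2 (137 against 254 CPM), and Isl2 is highest beside Zic1.

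For each of the 7 genes the 5 genes with the most similar level over the 37 RGC-like clusters were found among 9996 genes, by Pearson's r of log2(CPM + 1). For 6 of the 7 the most similar gene lay within 1 Mb of it on the same chromosome, and 8 of the 35 similar genes did, where such neighbours made up 0.0729% of the genes compared on average. For Pou4f1 it was D130079A08Rik (r = 0.978), a long noncoding RNA 2.3 kb downstream on the same strand. D130079A08Rik itself was at 1325 ± 169 CPM in RGC nuclei and 3.68 CPM in GAD-high amacrine-like nuclei. For Ebf1 it was Gm12158 (r = 0.981) and for Ebf3 Gm10578 (r = 0.952), noncoding genes that overlap them on the opposite strand. Where genes overlap or follow each other closely on 1 strand, reads of the pair may be assigned to either, so these values are uncertain.

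The protein-coding neighbours among the similar genes were further away. Nearest was Obi1, the 5th most similar gene to Pou4f1 (r = 0.794), 9.5 kb upstream on the same strand. Scaper, 3.7 kb downstream of Isl2 on the opposite strand, ranked 8th for it (r = 0.652). How reads of such close pairs were assigned was not tested. Pou4f2 was most like Ttc29 (r = 0.853), 38.7 kb downstream on the opposite strand, and then Slc10a7 (r = 0.763), 72.7 kb upstream. Pou4f3 was most like Rbm27 (r = 0.909), 52.8 kb upstream on the same strand, and Isl2 most like Etfa (r = 0.799), 26.2 kb upstream on the opposite strand. Rbm27 and Etfa were broad over classes, at 81.1 ± 4.12 and 85.7 ± 5.60 CPM in RGC nuclei and 65.0 and 52.4 CPM in GAD-high amacrine-like nuclei, whereas Ttc29 was at 12.2 ± 1.95 and 0.104 CPM. For Isl1 the most similar gene was Gm10558 (r = 0.69), on another chromosome. Only 2 compared genes lay within 1 Mb of Isl1, Parp8 at 541 kb and Emb at 899 kb. With no nearer gene to compare, Isl1 cannot be set apart from the other 6 in this.

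Neighbours were also described by distance. The 11 neighbours less than 100 kb away had a median r of 0.799 (−0.0377 to 0.981), the 13 at 100 to 500 kb one of 0.227 (0.0014 to 0.677), and the 27 at 500 to 1000 kb one of −0.0551 (−0.416 to 0.74). The ranges overlapped: Rbm26, 639 kb from Pou4f1, reached r = 0.74. Rab39, the next most similar gene to Isl2 after Etfa (r = 0.778), lay on the same chromosome 1828 kb away. Both nearer ranges hold under 20 genes, and the distances were examined after the first neighbours had been seen.

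**Figure D5:**
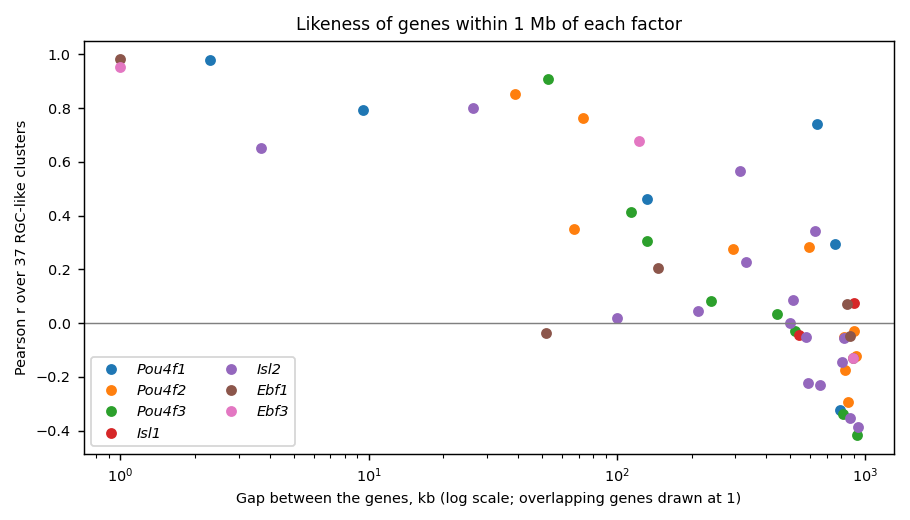
Pearson's r over 37 RGC-like clusters between each of the 7 genes (colours) and 51 genes within 1 Mb, against the gap between them in kb on a log axis, with overlapping genes drawn at 1. The median r is 0.799 within 100 kb and −0.0551 at 500 to 1000 kb.

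Promoter sequences of the members were read from a RefSeq table (GRCm38.p6, 250 bases before to 50 after each gene start), which held 7 promoters of 6 of the 7 genes and none of Pou4f3. They were searched on both strands for CAGCTG, an E-box form read by proneural helix-loop-helix factors, for TAATTA, a homeodomain core, and for the EBF form, TCCC and GGGA with 2 bases of any kind between them. All 3 motifs read the same on both strands, so 1 search covers both, and none overlaps another. CAGCTG was in 2 of the 7 promoters, those of Pou4f1 and Isl1, beside 16.3% of all 32851 promoters in the table. TAATTA and the EBF form were in 0 of the 7, beside 5.29% and 0.904% of all. A match describes these letters and not a bound site. The Pou4f1 promoter (chr14:104467950-104468249, minus strand) is 78.3% G and C with the motif 118 bases before the start, and the Isl1 promoter (chr13:116309639-116309938, minus strand) 69% with the motif 103 bases before it, against a median of 52.7% over all promoters. They are shown 5′ to 3′ because Pou4f1 marks RGC nuclei and Isl1 is highest outside them, with the motif in capitals.
Pou4f1: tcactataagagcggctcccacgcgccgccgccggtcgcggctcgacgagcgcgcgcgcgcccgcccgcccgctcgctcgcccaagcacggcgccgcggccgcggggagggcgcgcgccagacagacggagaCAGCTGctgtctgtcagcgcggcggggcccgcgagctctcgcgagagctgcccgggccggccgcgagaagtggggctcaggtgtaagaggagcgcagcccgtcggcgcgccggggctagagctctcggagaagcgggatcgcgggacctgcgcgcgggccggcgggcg
Isl1: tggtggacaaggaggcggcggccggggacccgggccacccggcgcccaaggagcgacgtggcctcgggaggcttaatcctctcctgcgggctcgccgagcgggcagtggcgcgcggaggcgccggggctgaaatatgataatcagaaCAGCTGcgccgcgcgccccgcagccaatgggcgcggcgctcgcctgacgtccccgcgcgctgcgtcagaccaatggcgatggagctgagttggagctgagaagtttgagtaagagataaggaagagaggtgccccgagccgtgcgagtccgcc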

How the data were processed

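The authors isolated retinal nuclei, sorted them as NeuN+ and RBPMS+, sequenced droplet-based libraries and deposited UMI counts per gene and barcode, including barcodes without a nucleus. Per the submitters' processing notes, counts came from Cell Ranger 7.0.0 on GRCm39. The study's removal of ambient RNA and its integration are not in these counts and were not repeated, and doublets were removed here with another tool, Scrublet. The members and gene lists were chosen with earlier results of these data known.

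Nuclei had at least 2000 UMIs and 200 genes and at most 5% mitochondrial counts, and outliers beyond 5 median absolute deviations (3 for mitochondrial counts) were removed. The nuclei with the highest scores, 0.8% per 1000 nuclei of a library and 866 in all, were removed as doublets. Pairs of libraries shared at most 11 barcodes. Python 3.11.15 and scanpy 1.11.5 clustered the log-normalised counts (30 components, 15 neighbours, resolution 0.7, 64 clusters) without the members, Piezo1, Piezo2 and Olig2. The scoring rule that named clusters, and the rule for a cluster above background, were set after the cluster tables had been seen. Nuclei that met the RGC rule were left out of every other class, and levels outside RGC nuclei depend on this step. With all nuclei pooled, Ebf1 was at 633 CPM in the cone-like cluster and 267 CPM in the cluster with Müller glia markers. Without the rule nuclei, its means over libraries there were 63.3 and 38.8 CPM.

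Counts were summed per library and tested with edgeR 4.0.16 (quasi-likelihood, TMM, filterByExpr) in each class with more than 10 nuclei and 1000 UMIs per library, with DESeq2 1.42.0 as an alternative, and the fit was tested on simulated data. Shares and marker comparisons used nuclei thinned to 2000 UMIs and exact permutation tests, two-sided, over libraries. The marker test over all genes and the comparison of pair ratios between genotypes were added after the data had been seen. Intervals and limits of 3 counts cover counting error only. Named genes were the members, 8 subclass markers, up to 4 genes with the smallest unadjusted p in each of 3 lists (EBF and LIM-homeodomain cofactors, RGC development factors, axon and output genes), and the 5 most similar genes per member among genes of at least 10 CPM. Positions are from GENCODE vM39 on GRCm39, and promoters from RefSeq on GRCm38.p6.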

Additional observations from a re-analysis of the deposited data

How the results depend on the processing

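No paired analysis was possible because the control libraries are numbered 1 to 4 and the cKO libraries 10 to 13, so no number is shared. In RGC nuclei 0 genes were called in the edgeR fits and 3 with DESeq2. The log2 fold change of Pou4f3 in RGC nuclei turned from −0.10 to 0.09 when nuclei were thinned to 2000 UMIs, and that of Ebf3 in GAD-high amacrine-like nuclei from 0.00 to 0.01 with DESeq2. None of these passed the threshold in either setting, and the other 55 values of members in RGC nuclei under other settings kept their direction. Leaving out 1 library moved the fold change across 0 for Pou4f2 in RGC nuclei (−0.09 to 0.08), for Isl1 (−0.16 to 0.40) and Ebf3 (−0.31 to 0.33) in GAD-high amacrine-like nuclei, for Ebf3 in Slc6a9-high amacrine-like nuclei (−0.09 to 0.32), and for Ebf1 in ON bipolar-like nuclei (−0.15 to 0.25) and in the cluster with Müller glia markers (−0.38 to 0.59). Isl1 in starburst amacrine-like nuclei stayed between −0.54 and −0.38. Ebf1 in the other bipolar-like nuclei kept its sign but ran from 0.10 to 0.64, and Isl1 in ON bipolar-like nuclei from −0.33 to −0.15.

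Among the Brn3 states, the cKO minus control difference in percentage points changed sign at full depth for Pou4f1 with Pou4f3 (−0.447), Pou4f2 with Pou4f3 (−0.0207) and none (3.52), and at 5000 UMIs for Pou4f1 alone (0.173), Pou4f1 with Pou4f2 (0.159) and Pou4f2 with Pou4f3 (−0.00875). It did so for Pou4f3 alone without doublet removal (0.0438) and with at least 4 marker UMIs (0.0599). Leaving out 1 library gave −1.54 to 0.524 for Pou4f1 alone, −0.0886 to 0.145 for Pou4f3 alone and −1.65 to 0.444 for none. Pou4f2 alone stayed above 0 (0.766 to 1.23, and 0.513 at full depth and 0.659 at 5000 UMIs).

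Beside subclass markers, 20 comparisons (6 higher, 14 lower) passed when adjusted over the 56 alone and 0 when adjusted over all genes and markers, an alternative chosen after seeing the data. Adjusted over the 56, 35 passed at full depth (12 higher, 23 lower) and 27 at 5000 UMIs, 10 of them higher. Leaving out 1 library gave 0 to 19 in all, 0 to 6 higher and 0 to 13 lower, a range that the smallest p of 7 libraries sets. Ebf3 beside Foxp2 turned from −35.7 CPM to 29.3 CPM at full depth and 3.78 CPM at 5000 UMIs. The ratio of observed to expected detection was 0.884 for Isl1 with Ebf3 and 1.00 for Ebf1 with Ebf3 (0.955 at 2000 UMIs, a pair held near 1 by the frequent detection of Ebf1) at full depth, and 0.988 for Ebf1 with Ebf3 and 1.01 for Pou4f1 with Ebf1 at 5000 UMIs. The causes of these changes were not tested. The depth limits what single nuclei show of Pou4f3 and Isl2, which were detected in 1.53% and 2.72% of RGC nuclei at 2000 UMIs.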

Other observations

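Olig2 gave 0 UMIs in the barcodes with at most 100 UMIs. The summed level of 5 oligodendrocyte markers in RGC nuclei was 21.1 to 25.3 CPM in control and 18.5 to 25.5 CPM in cKO libraries, which overlapped.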
